A study of Mus musculus with 20 samples.

Results

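The Dlk1-Dio3 miRNA cluster is the run of miRNA genes inside the imprinted Dlk1-Dio3 domain of mouse chromosome 12. Its members were taken by name: every mature miRNA, from either arm, of 49 listed hairpins. The deposited tables held 81 such names out of 1041 mature miRNAs, and 67 of them stood in both tables. The RNA came from cauda epididymosomes. These are vesicles released into the lumen of the last segment of the epididymis, where sperm are stored. They were collected from male mice aged 9 months, pelleted by ultracentrifugation after sperm had been removed by swim-up, and their small RNA was sequenced. The 5 Control males (animals 3, 5, 7, 9 and 11) came from litters left undisturbed, and the 5 MSUS males (animals 2, 4, 6, 8 and 14) from litters that were separated from the dam for 3 h a day, at unpredictable times, during the first 14 days of life while the dams were stressed by forced swimming or restraint. No genetic modification is named for either group. Each of the 10 libraries was sequenced in 2 runs, one labelled without and one labelled with size selection for miRNAs, which gave 10 samples in each of 2 tables (the without-selection and the with-selection table below). The question put to the cluster is whether early-life stress changed its miRNAs in vesicles of the adult male. Whether some animals were littermates is not given, and the p-values of MSUS against Control reflect only how far these 10 animals differ.

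The Dlk1-Dio3 domain is expressed according to parent of origin. The protein-coding genes Dlk1, Rtl1 and Dio3 are read from the paternal chromosome, and the noncoding RNAs Meg3, Rian and Mirg, together with the miRNAs and C/D box snoRNAs processed from them, from the maternal one. The miRNAs opposite Rtl1 (miR-431, miR-433, miR-127, miR-434 and miR-136) are fully complementary to the Rtl1 transcript and direct its cleavage, while those of the large group that runs from miR-379 to miR-410 are best known from placenta and brain. A miRNA recognises its targets chiefly through its seed, bases 2 to 8.

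The mature sequences of the members that carry most of the counts or on which the results turn are shown first, 5′ to 3′, from the RefSeq miRNA records of GRCm38.p6, with the seed in capitals. Those opposite Rtl1 are:
miR-127-3p: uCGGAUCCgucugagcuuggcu
miR-434-3p: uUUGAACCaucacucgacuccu
miR-434-5p: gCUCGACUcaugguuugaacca
Those between Rian and Mirg are:
miR-379-5p: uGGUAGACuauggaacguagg
miR-411-5p: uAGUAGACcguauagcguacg
miR-379-3p: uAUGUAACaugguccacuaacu
miR-411-3p: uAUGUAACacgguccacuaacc
miR-381-3p: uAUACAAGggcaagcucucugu
miR-300-3p: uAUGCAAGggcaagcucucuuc
Those within Mirg are:
miR-134-5p: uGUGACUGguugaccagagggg
miR-409-3p: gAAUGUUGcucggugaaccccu
miR-541-5p: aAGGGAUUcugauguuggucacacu

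Of 79 single names behind the members, 75 matched a RefSeq record, with mature lengths from 18 to 25 bases. Those 75 carried 71 different seeds, so most members of the cluster do not share a seed. Only 4 seeds were held by more than 1 member. These were AUGUAAC in miR-379-3p and miR-411-3p, AUGUGGG in miR-299a-3p and miR-299b-3p, GGUUGUC in miR-410-5p and miR-494-5p, and UGGAUAU in miR-376b-5p and miR-376c-5p. miR-379-3p and miR-411-3p differed at 2 of 22 positions, neither of them in the seed. Their partner arms miR-379-5p and miR-411-5p differed at 7 of 21 positions, 1 of them in the seed. miR-381-3p and miR-300-3p differed at 3 of 22 positions, of which 1 lay in the seed (A4G, counted from 1 at the 5′ end of miR-381-3p). Near-identical names can share reads, and in the with-selection library of MSUS 8 both held a part count (37.5 and 14.5). Several members share their seed with miRNAs outside the list, as miR-379-5p does with miR-1193-5p, miR-411-5p with miR-7229-5p, miR-329-3p with miR-362-3p, miR-495-3p with miR-1192 and miR-410-3p with miR-344d-3p.

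Estimated counts on mature miRNAs ran from 234146 to 550396 per library in the with-selection table and from 132139 to 575372 in the other. The cluster took 545 to 1284 and 326 to 1222 of them. Labels and contents of the tables conflict, since miRNAs made up 52.4 to 72.2% of all counts in the without-selection table but 10.9 to 17.02% in the with-selection table, so any direction between the tables refers to the labels only. Levels are given as CPM, a member's counts relative to all miRNA counts of its library after TMM scaling within the table. Levels of different members were not divided by length, on the assumption that a read covers a whole mature miRNA. A level of 3 counts, the limit that a count of 0 allows, came to 5.45 to 12.8 CPM in the with-selection libraries and 5.21 to 22.7 CPM in the others. Intervals and limits from counts cover counting error only.

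The cluster was a small part of the miRNA cargo, and the same animals were at the ends of its range in both tables. In the with-selection table it took 0.195, 0.323, 0.231, 0.247 and 0.217% of miRNA counts in Control 3, 5, 7, 9 and 11. The shares of MSUS 2, 4, 6, 8 and 14 were 0.243, 0.318, 0.233, 0.250 and 0.260%. In the without-selection table the same Control animals had 0.208, 0.313, 0.251, 0.229 and 0.212%, and the same MSUS animals 0.247, 0.321, 0.240, 0.250 and 0.240%. Control 5 and MSUS 4 stood highest and Control 3 lowest in both tables, and the groups overlapped in both. Exact 95% binomial intervals of Control 3 (0.179 to 0.211% and 0.190 to 0.227%) and of Control 5 (0.303 to 0.343% and 0.291 to 0.337%) did not overlap. This pair was picked after the shares were seen, so the intervals describe it and are no test. Group means were 0.243 ± 0.0488% in Control and 0.261 ± 0.0337% in MSUS libraries (SD, n = 5 each) of the with-selection table, and 0.243 ± 0.0430% and 0.259 ± 0.0349% in the other.

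**Figure D1:**
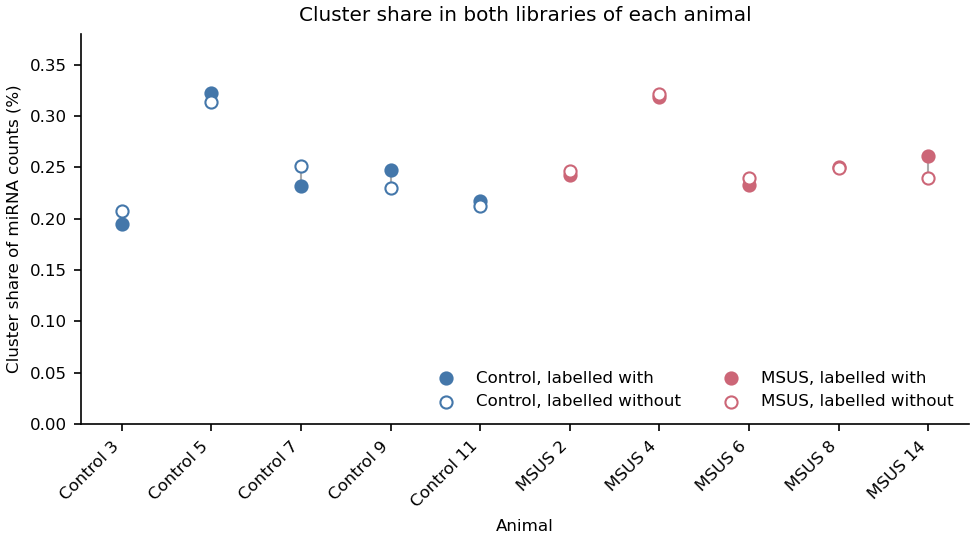
Share of all mature miRNA counts taken by the cluster (%, y axis) in both runs of each of the 10 animals (x axis). Filled points mark the table labelled with size selection and open points the table labelled without. A thin line joins the points of an animal. Control 5 and MSUS 4 lie above 0.31% in both tables, and the other animals between 0.195 and 0.260%.

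Counts were concentrated in few members. miR-127-3p and miR-379-5p together held 42.8% of the cluster's 8636.5 counts in the with-selection table and 39.1% of 7173.5 in the other. The 5 highest members held 60.1 and 61.0%, and 23 and 24 members made up 90%. Of the 77 members listed in the with-selection table, 31 were detected with at least 1 count in all 10 libraries and 23 in only 1 to 3, and 2 stayed under 1 count in every library. The without-selection table listed 71 members, of which 27 were in all 10 libraries, 17 in 1 to 3 and 1 under 1 count throughout. Hairpins miR-453, miR-544 and miR-654 had no row in either table, and miR-412 and miR-758 had none in the without-selection table.

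The 49 hairpins lie on chromosome 12, 48 of them on the plus strand and miR-299b on the minus strand opposite miR-299a, between positions 109563692 (miR-770) and 109743795 (miR-410) of GRCm38. By the GENCODE vM21 annotation, 5 of them lie opposite Rtl1, 23 between Rian and Mirg, 13 within Mirg, 5 between Meg3 and Rtl1, 2 within Rian and 1 within Meg3. The 5 hairpins opposite Rtl1 gave 42.4 and 43.2% of the cluster's counts in the with- and without-selection tables. Nearly all of that came from miR-127 (27.3 and 24.5%) and miR-434 (12.4 and 15.7%), with 2.28 and 2.09% from miR-136 and less from miR-431 and miR-433. The 23 hairpins between Rian and Mirg gave 37.5 and 38.8%, led by miR-379 (17.6 and 16.99%) and its neighbour miR-411 (5.93 and 7.68%) at the 5′ end of that group. The 13 hairpins within Mirg gave 17.2 and 15.0%, with miR-541 (4.18 and 2.44%), miR-409 (2.88 and 2.75%) and miR-134 (2.52 and 2.37%) the largest. The 8 hairpins within Meg3, between Meg3 and Rtl1 or within Rian were scarce: 2.05 and 2.10% from those between Meg3 and Rtl1, mostly miR-337, 0.729 and 0.809% from miR-341 and miR-370 within Rian, and 0.116 and 0.112% from miR-770 within Meg3.

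**Figure D2:**
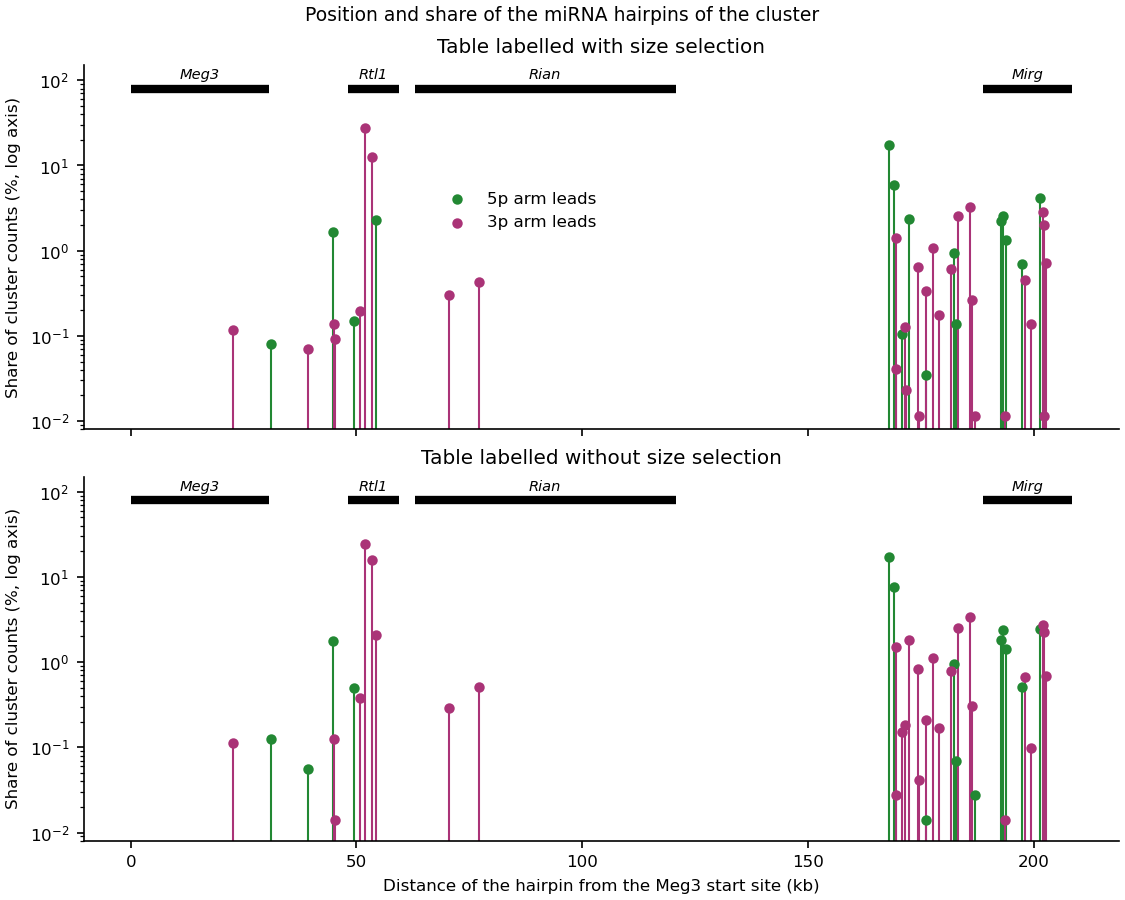
Share of the cluster's counts (%, logarithmic y axis) given by each hairpin, against its distance from the Meg3 start site (kb, x axis), in the table labelled with size selection (top) and without (bottom); black bars mark annotated genes and colours the arm with more counts. miR-127 (27.3 and 24.5%) and miR-379 (17.6 and 16.99%) stand above the other hairpins in both panels, one opposite Rtl1 and the other at the start of the group upstream of Mirg.

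For most hairpins a single arm dominated, and it was the same arm in both tables. Among 26 hairpins with at least 20 counts in each table, 24 had the same main arm in both, the exceptions being miR-136 and miR-329. The 3p arm led in 15 of the 26 in the with-selection table and 17 in the other. miR-127 gave 4.41% of its counts from the 5p arm in the with-selection table (95% exact binomial interval 3.62 to 5.32%) and 4.84% in the other (3.88 to 5.95%). miR-379 gave 95.1 and 92.8% from the 5p arm, and its neighbour miR-411 gave 82.0 and 81.5%. miR-381 and miR-300 gave no 5p count, which with 277.5 and 218.5 counts in the with-selection table allows 5p shares of up to 1.32 and 1.68% (upper 95% bounds). miR-434 gave sizeable counts from both arms, with 38.4% (35.5 to 41.4%) and 34.1% (31.3 to 37.0%) from the 5p arm.

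Arm use differed between the tables for 3 hairpins whose intervals did not overlap. miR-329 gave 70.6% of its counts from the 5p arm in the with-selection table (63.8 to 76.8%) and 47.0% in the other (38.2 to 55.8%), and the 5p share was higher with selection in 9 of 10 animals. miR-485 gave 75.4% (66.5 to 83.0%) and 56.4% (46.2 to 66.3%), also higher in 9 of 10 animals. miR-409 went the opposite way, with 28.9% (23.4 to 34.98%) and 43.1% (36.1 to 50.4%), and was lower with selection in 9 of 10 animals. These 3 were picked after their values were seen, so the counts of animals describe them and are no test.

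MSUS and Control animals were compared within each table. No member passed edgeR's quasi-likelihood test at an adjusted p of 0.05: 0 of 15 tested members in the with-selection table and 0 of 12 in the other, where over all tested miRNAs 0% of 259 and 0% of 233 passed. DESeq2 and limma-voom also called 0 members in both tables. At an unadjusted p under 0.05, edgeR left 0 members in the with-selection table (1.16% of all tested miRNAs higher and 1.54% lower), where DESeq2 and limma-voom also left 0. In the without-selection table it left 1 member, miR-381-3p, on the higher side (1.72% of all tested miRNAs higher and 3.86% lower), as did DESeq2, while limma-voom left 0. No tested member had groups that did not overlap (over all tested miRNAs 0% higher and 0.386% lower in the with-selection table, and 0% in each direction in the other). The other 62 and 59 listed members had too few counts to enter the test.

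Over the tested members the log2 fold change of MSUS over Control was positive for 10 of 15 in the with-selection table (54.8% of all 259 tested miRNAs) and for 9 of 12 in the other (50.2% of all 233). The median was 0.11 for members and 0.03 for all miRNAs with selection, and 0.15 and 0.0012 without. When libraries were scaled by all features instead of by miRNAs, the median of all miRNAs shifted to 0.52 and 0.29 and every tested member became positive, with 10 of 15 and 9 of 12 members above that median. In bulk vesicle preparations, fewer vesicles from a kind of cell and fewer copies in each cannot be told apart.

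**Figure D3:**
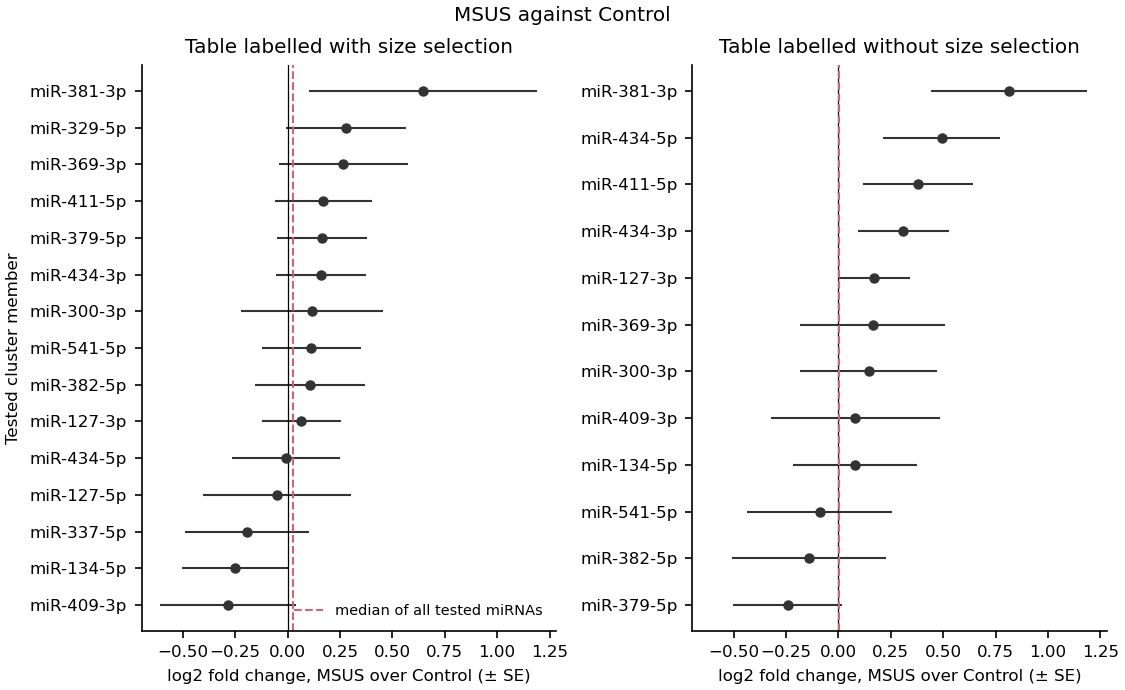
log2 fold change of MSUS over Control (x axis, bars ± SE from the edgeR fit) for each tested cluster member (y axis), with 15 members in the table labelled with size selection (left) and 12 in the table labelled without (right); the dashed line is the median of all tested miRNAs. miR-381-3p has the highest value in both panels (0.65 and 0.81), and no member passed the adjusted test.

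Of the members opposite Rtl1, miR-127-3p was the most abundant member of the cluster. In the with-selection table it stood at 487, 949, 416, 679 and 597 CPM in Control 3, 5, 7, 9 and 11 and at 658, 758, 565, 567 and 724 CPM in MSUS 2, 4, 6, 8 and 14. The Control values spanned the MSUS values, and the group means of 626 ± 207 and 654 ± 88.3 CPM (SD, n = 5 each) differed by a log2 fold change of 0.07 (SE 0.19, edgeR adjusted p = 0.980). In the without-selection table it stood at 456, 756, 485, 523 and 485 CPM in Control and at 613, 709, 596, 554 and 571 CPM in MSUS animals. There 5 of 5 MSUS animals lay above the Control mean and Control 5 lay above all of them (log2 fold change 0.17, SE 0.17, edgeR adjusted p = 0.862).

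miR-434-3p, from the neighbouring hairpin, had the same layout without selection but not with it. Its with-selection levels were 131, 267, 241, 132 and 159.5 CPM in Control and 200.3, 189, 199.8, 267 and 174 CPM in MSUS animals. In the without-selection table they were 218, 380.2, 225, 153 and 209.9 CPM in Control and 284, 265, 328, 344 and 238 CPM in MSUS animals. MSUS animals lay above the Control mean in 4 of 5 cases with selection and 5 of 5 without, while the highest Control animal, Control 5, stood level with the highest MSUS animal in the first (267 CPM each) and above it in the second (log2 fold changes 0.16, SE 0.21, and 0.31, SE 0.22). The other arm, miR-434-5p, averaged 124 ± 42.4 and 122 ± 41.2 CPM in Control and MSUS libraries with selection (log2 fold change −0.01, SE 0.26). Without selection it averaged 119 ± 40.1 and 158 ± 59.8 CPM (log2 fold change 0.49, SE 0.28, edgeR adjusted p = 0.862).

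miR-379-5p, the first miRNA of the group upstream of Mirg, had opposite signs in the 2 tables. With selection it stood at 249.8, 544, 521, 478 and 244 CPM in Control and at 437, 521, 439, 478 and 402 CPM in MSUS animals. Without selection it stood at 262, 586, 745, 449 and 276 CPM in Control and at 475, 497, 313, 357 and 294 CPM in MSUS animals. Control 3 and Control 11 were the lowest animals in both tables, and the MSUS animals fell inside the Control range. The log2 fold change was 0.17 (SE 0.21) with selection and −0.24 (SE 0.26) without, the second becoming 0.06 when scaled by all features. Its neighbour miR-411-5p averaged 119 ± 40.6 and 133 ± 27.1 CPM in Control and MSUS libraries with selection, and 144 ± 56.8 and 184 ± 46.4 CPM without (log2 fold changes 0.17, SE 0.23, and 0.38, SE 0.26).

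miR-381-3p, from the 3′ part of the same group, had the largest log2 fold change of the tested members in both tables. With selection its levels were 53.1, 132, 102, 34.8 and 35.6 CPM in Control 3, 5, 7, 9 and 11 and 62.8, 225, 91.2, 136 and 41.0 CPM in MSUS 2, 4, 6, 8 and 14. Without selection they were 47.6, 119, 84.3, 55.5 and 42.6 CPM in Control and 84.3, 178, 125, 159 and 48.4 CPM in MSUS animals. MSUS 4 was the highest animal in both tables, MSUS 14 lay among the low Control animals in both, and the groups overlapped. The log2 fold change was 0.65 (SE 0.54, edgeR adjusted p = 0.980) with selection and 0.81 (SE 0.37, edgeR adjusted p = 0.829) without. Leaving out MSUS 4 moved these to 0.22 and 0.59 (SE 0.45 and 0.39), and leaving out MSUS 14 moved them to 0.89 and 1.10 (SE 0.47 and 0.33, edgeR adjusted p = 0.732 and adjusted p = 0.150). Over all alternatives its lowest edgeR adjusted p was 0.302 with selection and 0.116 without, both when scaled by all features. With the counts of both runs summed per animal, miR-381-3p gave 0.67 (SE 0.40, edgeR adjusted p = 0.948). It spread 6.46-fold and 4.18-fold from the lowest to the highest animal, against 2.28-fold and 1.66-fold for miR-127-3p.

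miR-300-3p, whose sequence differs from miR-381-3p at only 3 positions, had smaller log2 fold changes. Its Control and MSUS means were 66.2 ± 27.3 and 71.8 ± 30.8 CPM with selection (log2 fold change 0.12, SE 0.34), and 63.1 ± 23.4 and 64.1 ± 18.6 CPM without (0.14, SE 0.33). Whether the difference between the fold changes of miR-381-3p and miR-300-3p exceeds their error was not tested. MSUS 4, the highest animal for miR-381-3p, was also the highest for miR-300-3p with selection, at 111 CPM, and Control 11 was the lowest in both tables, at 28.9 and 32.8 CPM. miR-329-5p, of the same group, averaged 36.2 ± 10.2 and 44.5 ± 10.0 CPM in Control and MSUS libraries with selection (log2 fold change 0.28, SE 0.29) and was too low to be tested without.

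**Figure D4:**
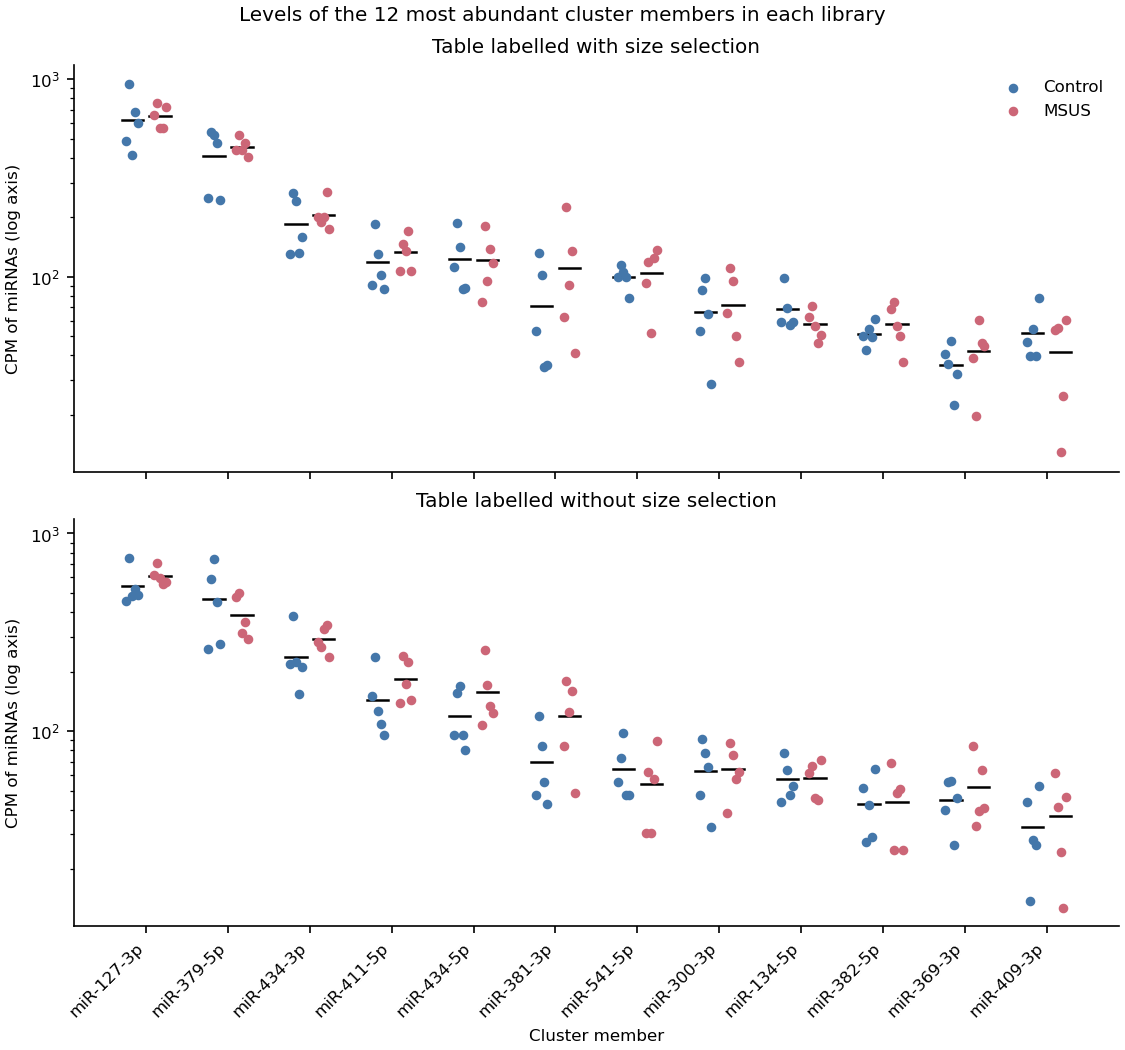
Level of the 12 most abundant cluster members (x axis) in each library (CPM of miRNAs, logarithmic y axis) in the table labelled with size selection (top) and without (bottom), with 1 point per animal, 5 per group, and black lines for group means. Control (blue) and MSUS (red) points overlap for every member shown, with miR-381-3p spread over 34.8 to 225 CPM in the upper panel.

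Among the members within Mirg, signs were mixed. miR-134-5p, known in neurons for limiting the size of dendritic spines, had Control and MSUS means of 68.8 ± 17.4 and 57.5 ± 9.77 CPM with selection, with 4 of 5 MSUS animals below the Control mean (log2 fold change −0.25, SE 0.25, edgeR adjusted p = 0.980). Without selection it averaged 57.0 ± 13.8 and 57.9 ± 12.2 CPM (0.08, SE 0.30), and scaled by all features the first value became 0.18. miR-409-3p averaged 51.8 ± 15.9 and 41.5 ± 21.1 CPM with selection and 32.9 ± 15.3 and 37.2 ± 19.0 CPM without (log2 fold changes −0.28, SE 0.32, and 0.08, SE 0.40), the first becoming 0.11 when scaled by all features. miR-382-5p differed by 0.11 (SE 0.26) and −0.14 (SE 0.37), miR-541-5p by 0.11 (SE 0.24) and −0.09 (SE 0.35) and miR-369-3p by 0.27 (SE 0.31) and 0.16 (SE 0.34). Between Meg3 and Rtl1, miR-337-5p averaged 41.9 ± 12.8 and 36.0 ± 5.41 CPM with selection (−0.19, SE 0.30, and 0.32 when scaled by all features) and was not tested without.

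With selection, Control 5 held the highest level of 5 and MSUS 4 of another 5 of the 15 tested members, while Control 11 held the lowest of 4 and the highest of 1. Without selection, Control 5 held the highest level of 4 of the 12 tested members, MSUS 4 of 3 and MSUS 2, with a cluster share of 0.247%, also of 3, and Control 11 held the lowest of 4. MSUS 4 held the lowest level of 1 member in each table. Control 5 and MSUS 4, the animals with the highest cluster shares, belong to different groups.

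The MSUS effect was not shown to differ between the tables. In an edgeR fit with an interaction of condition and run, 0 of 19 tested members passed at an adjusted p of 0.05 (0% of 279 tested miRNAs), 0 had an unadjusted p under 0.05, and DESeq2 also called 0. With the animal as a block, 0 passed (0% of 279) and 2 members had an unadjusted p under 0.05 (8.24% of all tested miRNAs). With the counts of both runs summed per animal, 26 members could be tested and 0 passed in edgeR (0% of 304 tested miRNAs), with 0 at an unadjusted p under 0.05 (0.658% of all higher and 1.64% lower). Of the 26, 15 were positive (49.7% of all 304), with a median of 0.050 against −0.0060 over all.

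Markers of cell types that could contribute to the vesicles were followed beside these values, and their part in them was not tested. The 5 germ cell miRNAs on the list summed to 5587 to 8679 CPM in Control and 6423 to 11074 CPM in MSUS libraries with selection, and to 3985 to 6223 and 4565 to 7793 CPM without. Here MSUS 2, 4 and 6 lay above every Control animal in both tables. Whether these 5 names mark germ cells in vesicles of the epididymis was not tested. The 4 neural miRNAs, of a tissue in which the cluster is known to be abundant, summed to 576 to 747 and 571 to 912 CPM with selection, with 4 of 5 MSUS animals above every Control animal and MSUS 2 below, and to 457 to 809 and 644 to 1049 CPM without, with 1 of 5 above. MSUS 4, the highest animal for miR-381-3p, was also the highest for the neural miRNAs in both tables and for the germ cell miRNAs with selection. Control 5, which like MSUS 4 had a high cluster share, stood at 606 and 650 CPM on the neural list with and without selection. Of the 4 neural miRNAs, 3 were detected in all 10 libraries, the exception being miR-219a-5p. The epithelial list, with miR-200 family members, marks the cells that line the epididymal duct. Its 7 miRNAs summed to 109823 to 125133 CPM in Control and 99156 to 117220 CPM in MSUS libraries with selection, with 3 of 5 MSUS animals below every Control animal, and to 112917 to 137822 and 107715 to 121464 CPM without, with 1 of 5 below. The 6 miRNAs of smooth muscle and stroma summed to 108024 to 148482 and 107385 to 191444 CPM with selection and to 105805 to 144813 and 106281 to 205962 CPM without, with 2 of 5 MSUS animals above every Control animal in each table and 1 below with selection. The blood list was the one on which no MSUS animal lay outside the Control range. Its 6 miRNAs, of which 5 were found without selection, summed to 1459 to 3070.3 and 1606 to 2119 CPM with selection and to 1405 to 3043 and 1522 to 2482 CPM without.

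Transcripts of the epididymal epithelium and of sperm were followed as summed estimated counts, not scaled for depth. Of 10 epididymal transcripts 9 were found, summing to 4753 to 18373 counts in Control and 2119 to 10497 counts in MSUS libraries with selection, and to 430 to 1435 and 173 to 1175 counts without. The 6 sperm transcripts summed to 247 to 691 and 253 to 536 counts with selection, and to 28 to 102 and 23 to 99 counts without.

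Other RNAs of the domain were compared in a fit over all features. None of the domain features tested passed (0% of 10998 features with selection and 0% of 1075 without), and the without-selection table had no domain feature with enough counts to test. Rian, the host of the domain's C/D box snoRNAs, held 128.8 counts in Control and 119.7 counts in MSUS libraries with selection. Its level after TMM scaling over all features was 7.07 ± 1.60 and 12.1 ± 5.63 CPM of all counts in Control and MSUS libraries (log2 fold change 0.64, SE 0.26, edgeR adjusted p = 0.837). With library size alone the log2 fold change was 0.10. Meg3, the noncoding RNA from which the maternally read unit starts, was in all 10 libraries with selection at 1 to 15.98 counts and in 6 without, too few to test. Dio3 (10 counts in all), Dlk1 (9.83), Mirg (7.03) and Rtl1 (1.83) were close to absent with selection, and Dio3os had no row. Of 23 annotated snoRNA genes of the domain, 13 and 11 were listed in the 2 tables and 1 was tested. This was AF357425, at 3.13 ± 0.852 and 5.15 ± 1.23 CPM of all counts (log2 fold change 0.52, SE 0.23, edgeR adjusted p = 0.874), and −0.01 with library size alone.

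The last comparison was between the tables, that is between 2 runs of the same libraries. Among 256 miRNAs tested in both, 15 were members, and their median log2 difference, with over without, was −0.0023 against −0.0097 over all 256. In edgeR, 1 member was higher in the with-selection table at an adjusted p of 0.05 (14.1% of all tested miRNAs) and 1 lower (7.42%).

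The member higher with selection was miR-541-5p, the longest of the tested members at 25 bases. On the scale of each table it stood at 99.9, 115, 106, 99.5 and 78.1 CPM with selection in Control 3, 5, 7, 9 and 11, and at 55.5, 73.3, 98.3, 47.6 and 47.6 CPM without. In MSUS 2, 4, 6, 8 and 14 it stood at 92.7, 118, 52.1, 125 and 137 CPM with selection, and at 30.7, 62.2, 30.4, 57.3 and 89.0 CPM without. All 10 animals were higher with selection (log2 difference 0.76, SE 0.20, edgeR adjusted p = 0.00902), and the difference became −2.34 when miRNAs were scaled by all features, which moved the median of all 256 miRNAs to −3.12 and that of the 15 members to −3.09. miR-434-3p was lower with selection in 9 of 10 animals, the exception being Control 7, at means of 193 ± 49.2 and 268 ± 70.4 CPM on the joint scale (SD, n = 10 each; log2 difference −0.46, SE 0.16, edgeR adjusted p = 0.0347). This fit did not pair the 2 runs of an animal. In it, the call of miR-434-3p was lost without Control 3, MSUS 2, MSUS 4, MSUS 6 or MSUS 14 (edgeR adjusted p from 0.0511 to 0.0824).

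Both runs read the same library of an animal. With the animal as a block 5 members passed, 3 higher (28.1% of all tested miRNAs) and 2 lower (29.3%). These were miR-541-5p (0.73), miR-409-3p (0.39) and miR-127-3p (0.14) on the higher side, and miR-434-3p (−0.47) and miR-411-5p (−0.40) on the lower side. The edgeR adjusted p with the block was 4.45e-07 for miR-541-5p, 9.17e-07 for miR-434-3p and 0.000662 for miR-411-5p, and 0.0459 for miR-409-3p and 0.0383 for miR-127-3p. miR-411-3p was lower with selection in 8 of 10 animals (−0.42, adjusted p = 0.0723) and did not pass. Without a filter on low counts, 4 of 66 members passed in edgeR (7.71% of 765 tested miRNAs), and with scaling by all features 15 of 15 did (100% of 256), so that the last count says nothing of the members.

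Mature length was set beside these differences. The tested members of 21 bases (miR-379-5p, miR-369-3p and miR-411-5p) had log2 differences of −0.0023, −0.28 and −0.40, and the member of 25 bases had 0.76. Spearman's rho between length and difference was 0.48 over the 15 members, which share libraries and are no independent points. Most of them are 22 bases long, so that rho rests mainly on the few members of 21 and 25 bases. Over all tested miRNAs with a sequence, the median difference was −0.22 for 32 miRNAs of 21 bases, −0.07 for 132 of 22 bases, 0.21 for 40 of 23 bases and 0.42 for 6 of 24 bases. The 3 miRNAs of 25 bases, miR-541-5p among them, were all positive with a median of 0.19. Within 22 bases, members still spread from −0.46 (miR-434-3p) to 0.37 (miR-409-3p). The part that length has in the differences was not tested.

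**Figure D5:**
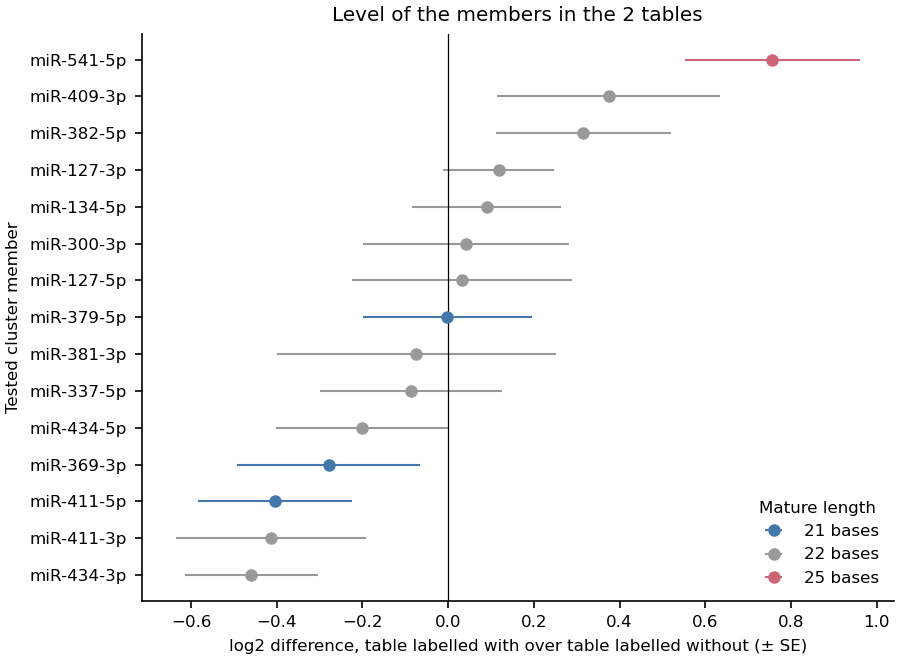
log2 difference between the table labelled with and the table labelled without size selection (x axis, bars ± SE from the edgeR fit over 20 samples) for each of the 15 tested cluster members (y axis), coloured by mature length in bases. The member of 25 bases, miR-541-5p, is highest at 0.76 and the members of 21 bases lie at −0.0023, −0.28 and −0.40.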

How the data were processed

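Small RNA libraries of 5 Control and 5 MSUS animals were sequenced in 2 runs, and each run has a table. The authors deposited estimated counts per annotated RNA, many of them not whole, and the assignment of reads to names is not given in the sources at hand. The submitters' processing notes name the build GRCm38 and, among the tools, STAR and edgeR. The link of a table to a run rests on its name and the design text, since its columns give only the animal. The members and lists were chosen with earlier results of these data known.

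Estimated counts were rounded to whole numbers, which removed 0.0504 to 0.0992% of counts in the with-selection table and 0.266 to 0.689% in the other. Tests were run in R 4.3.3 with edgeR 4.0.16. After filterByExpr, libraries were scaled by TMM and counts fitted by quasi-likelihood with robust settings, and p was adjusted by Benjamini-Hochberg over all mature miRNAs tested, at a threshold of 0.05. The library size was the miRNA total, or the total of all features for other RNAs of the domain. Standard errors (SE) come from the F statistic. The table comparison used all 20 samples with condition as a covariate. DESeq2 1.42.0 and limma-voom (limma 3.58.1), other scalings, no filter, summed runs and leaving out each animal were alternatives. The script was tested on simulated data.

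Members named with values are the 12 highest mean levels over 20 samples, the 3 smallest p in each direction per table, and the largest differences called between tables (at most 3 per direction); any others were named after their values were seen. Per the labels, a number marks the same animal in both runs. Over 256 miRNAs, an animal's deviations from its group mean in the 2 runs had correlations of 0.445 to 0.722, and 10 of 10 animals matched themselves best. Over the 15 members among them the correlations ran from 0.0858 to 0.824, and 7 of 10 animals matched themselves best. The 326 to 1284 cluster counts per library are shared among the members. Precision for a single member depends on its own counts and on the spread between animals. With selection, miR-127-3p had 114 to 371 counts per library, and its CPM had an SD of 23.6% of the mean. For miR-381-3p these were 14 to 57 counts and 66.0%. The parts of counting error and of animals in this spread were not tested.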

Additional observations from a re-analysis of the deposited data

Results flagged for a closer look

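Of 60 groups of 5 values checked for a value far from the others, 4 held one, where chance gives about 1 in 20; each ratio below is the gap to the nearest animal over the range of the group. miR-127-3p in Control libraries without selection had Control 5 at 756 CPM against 456 to 523 CPM (ratio 0.775). miR-434-3p in MSUS libraries with selection had MSUS 8 at 267 CPM against 174 to 200.3 CPM (ratio 0.716). miR-134-5p in Control libraries with selection had Control 5 at 98.9 CPM against 57.2 to 69.3 CPM (ratio 0.7104). The cluster's share of miRNA counts in MSUS libraries without selection had MSUS 4 at 0.321% against 0.240 to 0.250% (ratio 0.877).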

How the results depend on the processing

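No member was called between MSUS and Control in either table under any alternative: DESeq2, limma-voom, scaling by all features or by library size alone, no filter, summed runs, and each animal left out (0 to 0 members). No paired analysis of MSUS against Control was possible because the groups share no animal number. Between the tables the 2 members called became 5 with the replicate block (animal as a block), 4 of 66 with no filter on low counts (7.71% of all tested miRNAs) and 15 of 15 with scaling by all features (100% of all tested miRNAs, so that nothing is read from it for the members), and 1 to 2 without each animal in turn; miR-541-5p became −2.34 with scaling by all features. Signs of single members in MSUS against Control turned in several settings. Scaled by all features, the values with selection were 0.48 (miR-434-5p), 0.18 (miR-134-5p), 0.11 (miR-409-3p) and 0.32 (miR-337-5p), and without selection 0.064 (miR-379-5p), 0.18 (miR-541-5p) and 0.15 (miR-382-5p). With limma-voom miR-434-5p was 0.0098 with selection. Against the values with selection, summed runs gave −0.047 (miR-379-5p) and 0.21 (miR-434-5p), and against those without, 0.012 (miR-541-5p), −0.15 (miR-134-5p), 0.0040 (miR-382-5p) and −0.17 (miR-409-3p). Leaving out 1 animal turned these signs, given as lowest and highest value. With selection they were −0.025 and 0.25 (miR-127-3p), −0.19 and 0.18 (miR-434-5p), −0.12 and 0.32 (miR-300-3p), −0.0037 and 0.25 (miR-382-5p) and −0.025 and 0.25 (miR-541-5p). Without selection they were −0.40 and 0.017 (miR-379-5p), −0.39 and 0.11 (miR-541-5p), −0.025 and 0.31 (miR-300-3p), −0.0037 and 0.20 (miR-134-5p), −0.28 and 0.17 (miR-382-5p) and −0.091 and 0.45 (miR-409-3p). AF357425 was −0.0087 with library size alone. The cause of these turns was not tested. Members with few counts (62 and 59) were not tested. For those tested, differences within the SE and some past it could not be called. The value of miR-381-3p without selection lay past its SE (0.81, SE 0.37, edgeR adjusted p = 0.829).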

Other observations

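Of the domain's mature miRNAs outside the listed names, miR-1193, miR-1197, miR-1188, miR-3070, miR-3071, miR-3072 and miR-496b were looked for. Rows that join several names were not searched. miR-1197, miR-3070, miR-3071 and miR-496b had no row of their own in either table, and the others were scarce. miR-1193-3p had 15 counts over the 10 libraries with selection and 14 without, in 8 libraries of each table. miR-3072-3p had 9 and 21 counts, in 5 and 8 libraries. miR-1188-5p had 1 and 2 counts, and miR-1193-5p, which shares its seed with miR-379-5p, had 1 count in each table against 1443 and 1131 for miR-379-5p.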
